A study of Mus musculus with 9 samples.

Results

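Antioxidant defence and Nrf2 target genes were followed in the kidneys of aged and young mice. Members were chosen by symbol, 39 genes in all, and a gene was taken from a probe set that carries exactly 1 gene symbol, with the brightest probe set standing for a gene that has several. Of these, 35 were measured among 19938 genes with a probe set of their own. Prdx5, Prdx6, G6pdx and Ucp2 had no such probe set and were not analysed here.

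Nrf2, the product of Nfe2l2, is a transcription factor that Keap1 holds in the cytoplasm and hands over for degradation. Oxidants and electrophiles modify cysteines of Keap1, Nrf2 then accumulates, pairs with a small Maf protein in the nucleus and binds antioxidant response elements near genes of glutathione synthesis, of the thioredoxin system, of quinone and haem breakdown and of NADPH supply. The tubules of the kidney respire heavily to drive reabsorption, and glutathione, thioredoxin, catalase and the superoxide dismutases take up the oxidants that arise there.

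The study compared old and young kidneys to describe renal aging, and only its transcript arrays are used here. Whole kidneys of female wild type mice (mixed FVB/C57BL6) gave the total RNA, which was read on Affymetrix Mouse Gene ST arrays, with 5 arrays at 96 weeks and 4 at 14 weeks. The methods describe perfused mice and snap frozen kidneys, and the labels name no mutation or treatment at either age. Labels number the arrays as replicates without naming the animals, so that p-values measure the spread between these arrays. Values are log2 expression after the robust multi-array average (RMA), and a log2 difference is the 96 week mean minus the 14 week mean.

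The markers of the proximal tubule (10 of 10 measured) and of the thick limb and distal tubule (6 of 6) had a median level at percentile 98 of all genes. The median was at percentile 74 for the collecting duct (6 of 6) and at percentile 58 for the podocyte (4 of 5). The tubule segments of a whole kidney were thus represented. No array duplicated another, the highest correlation between arrays being 0.992. Scaling mattered. The upper quartile of the deposited values was 7.83 to 7.88 in 96 week old kidneys and 7.78 to 7.82 in 14 week old kidneys, and a repeated quantile normalization and a cyclic loess normalization were therefore set beside the deposited values. The number of arrays limits the precision, and 5 against 4 arrays cannot give an exact two-sided p below 0.0079.

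Of the 35 genes, 4 were higher in 96 week old kidneys at an adjusted p under 0.05 from limma (Park7, Srxn1, Gpx4 and Taldo1), which is 11.4% against 4.31% of all genes. None was lower, against 2.4% of all genes. At an unadjusted p under 0.05 from limma, 16 were higher, against 13.3% of all genes, and 2 were lower, against 15.3% of all genes. With genes under percentile 30 left out, which keeps all 35, 7 were higher (against 7.7% of the genes kept) and none was lower (against 3.63%). The median log2 difference was 0.14, against -0.03 for all genes, and 28 of 35 differences were positive, against 43.4% of all genes. After the repeated quantile normalization the median was 0.09, 27 of 35 differences were positive (77.1%, against 46.1% of all genes), and 3 genes were higher (8.57%, against 2.67%) and 1, Nox4, was lower (against 2.37%). After cyclic loess 3 were higher (against 2.88% of all genes) and Nox4 was again lower (against 2.0%). The arrays of both ages did not overlap for 7 genes that were higher at 96 weeks, against 7.49% of all genes, and for 1 that was lower (2.86%, against 5.79%).

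Most of these genes are bright, and bright genes as a whole leaned upward at 96 weeks. Of the 35 genes, 24 lie above percentile 80 of the mean level over all genes, 8 between percentiles 60 and 80, and 3 between percentiles 30 and 60. Above percentile 80, 11.0% of all genes were higher at 96 weeks, with a median log2 difference of 0.05, and 2 of the 24 genes passed. Between percentiles 60 and 80, 8.1% of all genes were higher, with a median of 0.06, and 2 of the 8 passed. The share of 11.4% is thus near that of all genes of like brightness. After the repeated quantile normalization 5.77% and 4.64% of all genes in these classes were higher, and their medians were -0.03 and 0.02.

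**Figure D1:**
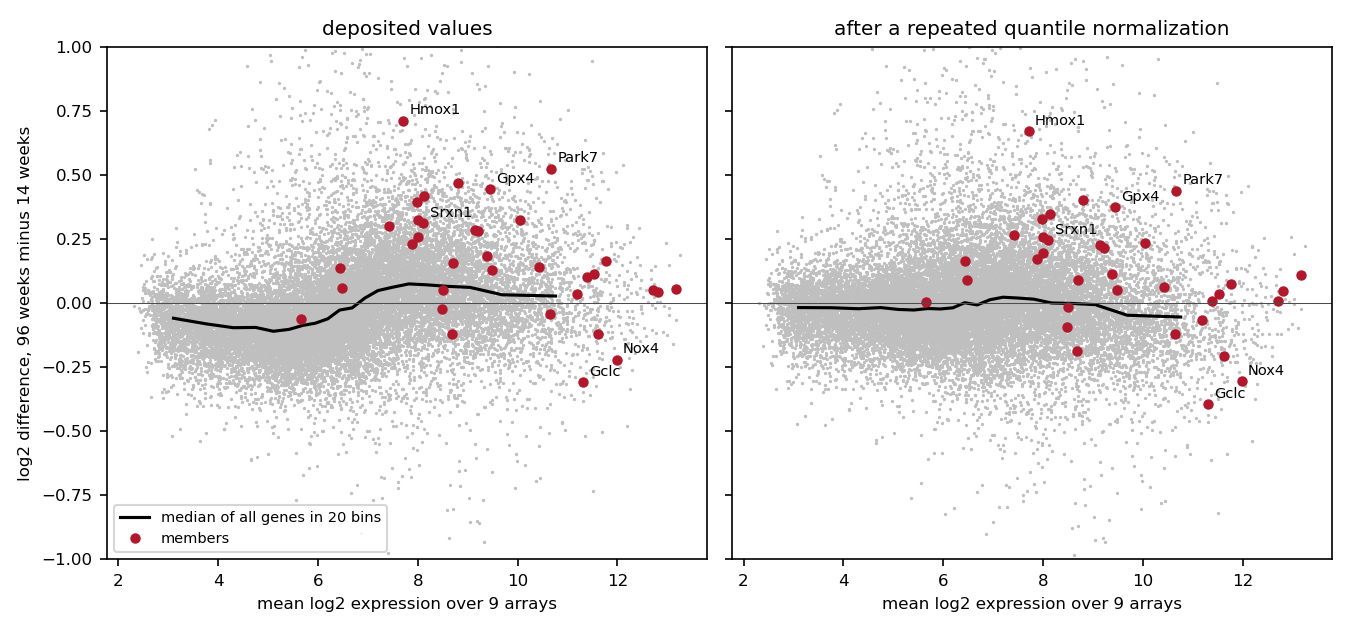
Log2 difference (96 weeks minus 14 weeks) on the vertical axis against mean log2 expression over 9 arrays on the horizontal axis, for the deposited values (left) and after a repeated quantile normalization (right). Grey points are all 19938 genes, red points the 35 antioxidant and Nrf2 target genes, and the black line is the median of all genes in 20 bins. Most red points lie to the right and above 0, and the median of the bright genes lies closer to 0 in the right panel.

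**Figure D2:**
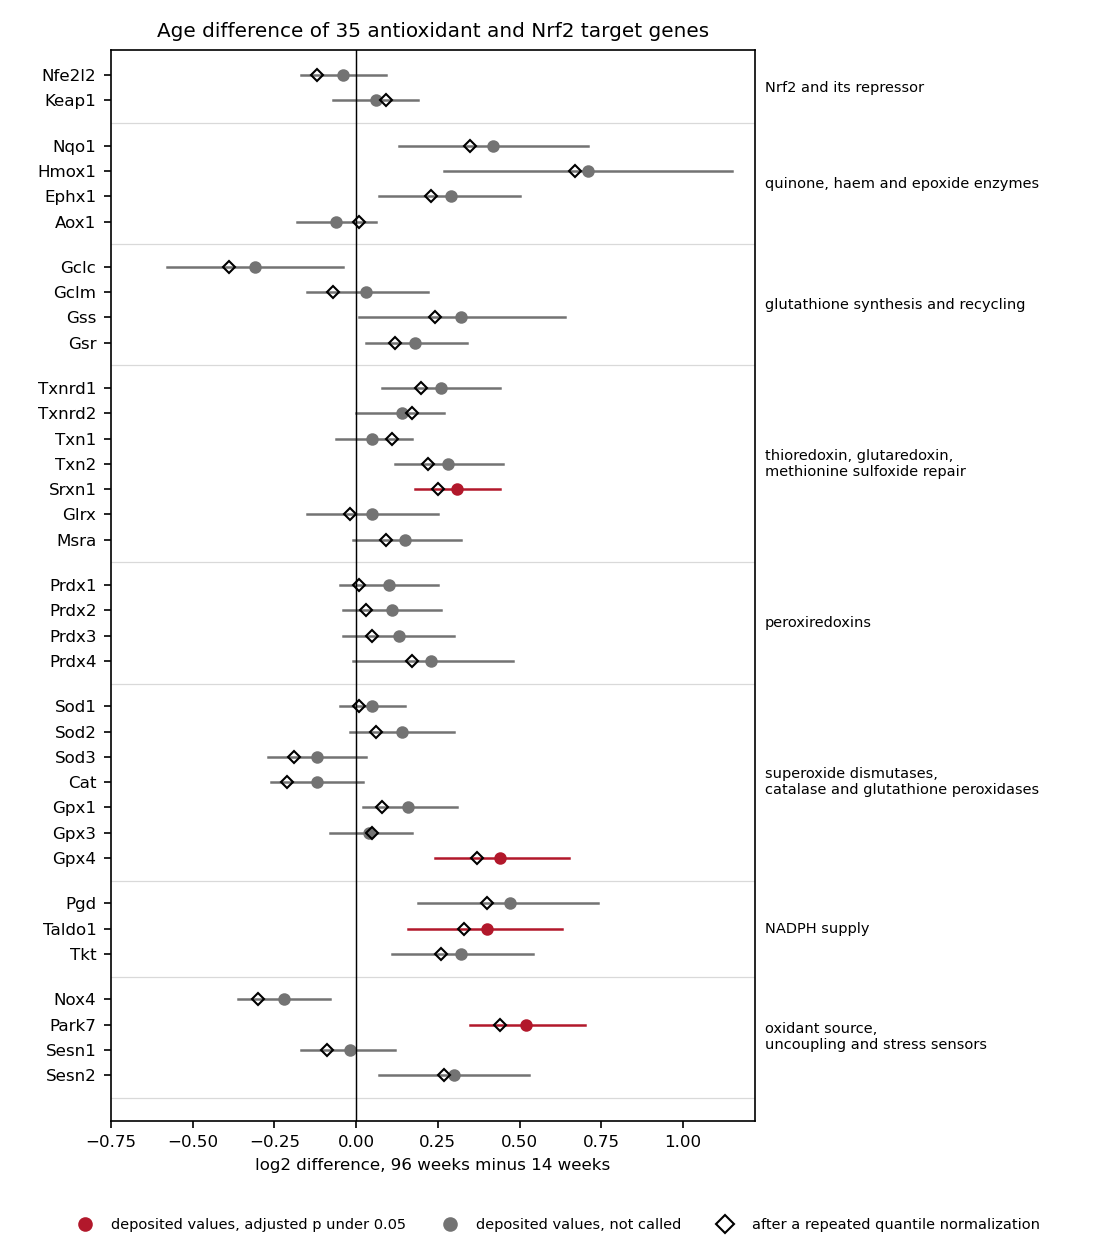
Log2 difference (96 weeks minus 14 weeks) of each of the 35 genes, grouped by role, with the 95% confidence interval from limma as a bar. Filled points are the deposited values, in red for genes with an adjusted p under 0.05 and in grey for the others, and open diamonds are the values after a repeated quantile normalization. Park7, Srxn1, Gpx4 and Taldo1 are red, and the diamonds lie to the left of the points for most genes.

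The transcripts of the sensor itself showed no difference that limma could call. Nfe2l2 had levels of 10.62, 10.49, 10.72, 10.64 and 10.63 in 96 week old kidneys, against 10.64, 10.64, 10.59 and 10.78 in 14 week old kidneys. Keap1 had 6.61, 6.60, 6.48, 6.48 and 6.39 at 96 weeks, against 6.48, 6.48, 6.36 and 6.48 at 14 weeks. The age groups overlapped for both genes. The log2 difference of Nfe2l2 was -0.04 (95% confidence interval -0.17 to 0.09, adjusted p = 0.66 from limma) and that of Keap1 was 0.06 (-0.07 to 0.19, adjusted p = 0.51). Of 12 further partners and regulators of Nrf2 none passed in either direction in the deposited values, and their median log2 difference was -0.01. Among them Sqstm1, whose protein p62 draws Keap1 into autophagosomes, had 0.37 (adjusted p = 0.059 from limma), with every 96 week value above every 14 week value. Cul3, the scaffold of the ubiquitin ligase that Keap1 serves, had 11.78 to 11.84 at 96 weeks, against 11.88 to 11.93 at 14 weeks. Its log2 difference was -0.09 (adjusted p = 0.19 from limma), and -0.18 after the repeated quantile normalization, where it was called lower (adjusted p = 0.035).

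Antioxidant response elements were looked up in the promoter windows of RefSeq (GRCm38.p6), which hold 250 bases before and 50 bases after an annotated start. A window was found for 30 of the 35 genes. Hmox1, Gclc, Gsr, Msra and Sod3 had none and were not searched. The core of the element, searched as TGACNNNGC on both strands, was present in 8 of these 30 genes (26.7%), against 14.0% of all genes with a window. The related AP-1 element, searched as TGANTCA, which reads the same on both strands and can overlap the first motif, was present in 4 of 30 (13.3%), against 8.97%. The following matches are shown because they belong to Nfe2l2 itself, to Srxn1, which rose, and to Prdx1, Pgd and Txnrd1 of the same redox systems. Capitals mark the motif, each sequence is printed on the minus strand, and the span includes 10 flanking bases on either side.
Nfe2l2, chr2:75704885-75704913: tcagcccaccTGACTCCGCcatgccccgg
Srxn1, chr2:152105542-152105570: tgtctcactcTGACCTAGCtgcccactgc
Prdx1, chr4:116685456-116685484: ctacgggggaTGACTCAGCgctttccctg
Pgd, chr4:149166061-149166089: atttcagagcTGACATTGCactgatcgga
Txnrd1, chr10:82859104-82859132: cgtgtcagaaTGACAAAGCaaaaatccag

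The Prdx1 match overlaps an AP-1 element. Srxn1 has a pair of AP-1 elements further upstream in the same window. The one nearer the start continues with gc, as the core does. It has G where the core was searched with C, and so was counted only as AP-1. Both are printed here on the plus strand with the element in capitals.
Srxn1, chr2:152105412-152105438: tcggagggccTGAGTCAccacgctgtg
Srxn1, chr2:152105469-152105495: aaattcacccTGAGTCAgcggccgggc

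The other matches of the core were in Gclm, Sesn2 and Sod1. The windows of Nqo1, Gpx4, Taldo1 and Park7 held neither motif, and bases outside the windows were not searched. A match of letters is a description of the window and was not tested as a binding site.

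Srxn1, the sulfiredoxin that restores overoxidised peroxiredoxins, rose in 96 week old kidneys. Its levels were 8.15, 8.27, 8.15, 8.40 and 8.28 at 96 weeks, against 7.93, 7.93, 7.94 and 7.94 at 14 weeks. Every old kidney lay above every young one, and the young kidneys were nearly alike. Limma gave a log2 difference of 0.31 (standard error 0.059, 1.24-fold, adjusted p = 0.017 from limma), and it was 0.25 after the repeated quantile normalization (adjusted p = 0.041). An exact two-sided permutation test gave p = 0.0079, the smallest that these arrays allow.

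The other thioredoxin genes had smaller or more scattered differences, all of them positive in the deposited values. Txn2, the mitochondrial thioredoxin, lay just outside the threshold. It had 9.34, 9.44, 9.14, 9.28 and 9.49 at 96 weeks, against 9.03, 9.01, 9.16 and 9.03 at 14 weeks. The age groups overlapped in that replicate 3 at 14 weeks was slightly above replicate 3 at 96 weeks. Its log2 difference was 0.28 (standard error 0.074, adjusted p = 0.0502 from limma), and 7 of 20 alternative settings called it. Txnrd1, the cytosolic thioredoxin reductase, had a range of 8.01 to 8.34 at 96 weeks, against 7.70 to 7.93 at 14 weeks. Its groups did not overlap, with a log2 difference of 0.26 (adjusted p = 0.079 from limma).

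Txnrd2, the mitochondrial reductase, had a log2 difference of 0.14 (adjusted p = 0.17 from limma). Msra, which repairs oxidised methionine, had 0.15 (adjusted p = 0.20). Txn1, the cytosolic thioredoxin, spanned only 13.16 to 13.24 at 96 weeks, against 13.01 to 13.19 at 14 weeks. Its log2 difference was 0.05 in the deposited values, 0.11 after the repeated quantile normalization and -0.02 after cyclic loess. Glrx, the cytosolic glutaredoxin, had 0.05, which became -0.02 after the repeated quantile normalization and lay just under 0 after cyclic loess.

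In the quinone, haem and epoxide group Hmox1 had the widest difference of all 35 genes, and it split the old kidneys. Hmox1, the inducible haem oxygenase, had 7.52, 7.57, 8.39, 8.33 and 8.35 in 96 week old kidneys, against 7.49, 7.38, 7.27 and 7.12 in 14 week old kidneys. Replicates 3, 4 and 5 at 96 weeks were well above all others, whereas replicates 1 and 2 were only just above the highest young kidney. The log2 difference was 0.71 (standard error 0.199, adjusted p = 0.059 from limma, exact two-sided permutation p = 0.040). It was the only one of the 35 genes to pass the threshold of the study's methods, a 1.5-fold change (here 1.64-fold) with an unadjusted p under 0.05, which 1.6% of all genes passed. In limma the adjusted p fell under 0.05 in 5 of 20 alternative settings, among them those without replicate 1 (log2 difference 0.84, adjusted p = 0.038) or replicate 2 (0.83, adjusted p = 0.046) at 96 weeks.

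Macrophages, which recycle haem and express Hmox1, differed between the same kidneys. The mean of 16 macrophage markers, each centred over the 9 arrays, was 0.14, -0.16, 0.84, 0.92 and -0.03 in replicates 1 to 5 at 96 weeks, against -0.44 to -0.40 at 14 weeks. It was high in replicates 3 and 4 at 96 weeks, as Hmox1 was, but not in replicate 5, where Hmox1 was high. Of these markers 3 were called higher in limma (18.8%, against 4.31% of all genes), none was called lower, and the median log2 difference was 0.68. Markers of B and plasma cells ran at 0.23 to 1.56 at 96 weeks, against -1.04 to -0.95 at 14 weeks. The part of these cells in the Hmox1 difference was not tested, and in whole kidney RNA fewer or more cells of a type and less or more RNA per cell cannot be told apart.

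Nqo1, the quinone reductase often used as a readout of Nrf2, had a different order of kidneys. Its levels were 8.71, 8.42, 8.08, 8.19 and 8.20 at 96 weeks, against 8.03, 8.03, 7.89 and 7.65 at 14 weeks. The groups did not overlap, with the highest values in replicates 1 and 2 at 96 weeks, where Hmox1 was lowest among the old kidneys. On the log2 scale the difference was 0.42 (standard error 0.130, adjusted p = 0.078 from limma, exact two-sided permutation p = 0.016), and none of 20 alternative settings called it. Ephx1, the microsomal epoxide hydrolase, had a log2 difference of 0.29 (adjusted p = 0.098 from limma) with overlapping groups. Aox1, an aldehyde oxidase, had -0.06, which became 0.01 after the repeated quantile normalization and 0.02 after cyclic loess.

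**Figure D3:**
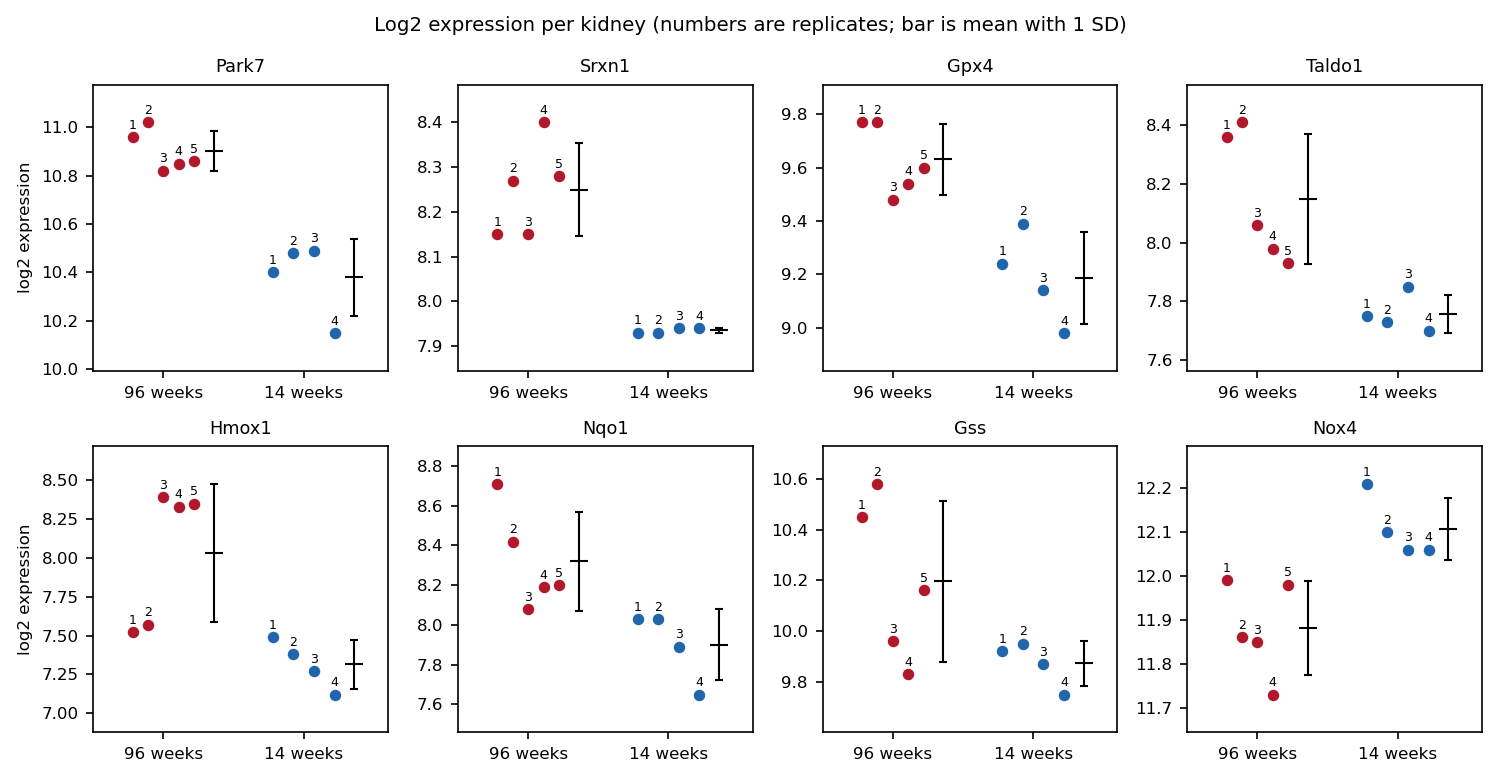
Log2 expression per kidney of Park7, Srxn1, Gpx4, Taldo1, Hmox1, Nqo1, Gss and Nox4, with 96 weeks at the left and 14 weeks at the right of each panel. Numbers beside the points are replicates, and bars give the mean and 1 SD (5 arrays at 96 weeks, 4 at 14 weeks). The ages overlap only for Gss among these genes, and Hmox1 shows replicates 3, 4 and 5 at 96 weeks apart from replicates 1 and 2.

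The genes of glutathione synthesis did not move together. Gclc, the catalytic subunit of the rate-limiting glutamate-cysteine ligase, had 11.11, 11.36, 10.76, 11.37 and 11.27 at 96 weeks, against 11.67, 11.48, 11.45 and 11.34 at 14 weeks. Replicate 3 at 96 weeks was the lowest, and the 2 groups overlapped at their edges. The log2 difference was -0.31 (standard error 0.124, adjusted p = 0.14 from limma), the most negative of the 35 genes. After the repeated quantile normalization it was -0.39 (adjusted p = 0.073).

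Gclm, the modifier subunit of the same ligase, ranged from 11.00 to 11.49 at 96 weeks, against 11.14 to 11.21 at 14 weeks. Its log2 difference was 0.03 in the deposited values and -0.07 after the repeated quantile normalization, so that it has no settled direction. Gss, the synthetase of the second step, had a lowest, median and highest value of 9.83, 10.16 and 10.58 at 96 weeks, against a range of 9.75 to 9.95 at 14 weeks. Replicates 1 and 2 at 96 weeks were the highest for Gss, as they were for Nqo1. Its log2 difference was 0.32 (adjusted p = 0.17 from limma). Gsr, the reductase that returns oxidised glutathione to its reduced form, had 0.18 (adjusted p = 0.13 from limma).

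Gpx4, the glutathione peroxidase that reduces lipid hydroperoxides in membranes, rose. It had 9.77, 9.77, 9.48, 9.54 and 9.60 at 96 weeks, against 9.24, 9.39, 9.14 and 8.98 at 14 weeks. The groups were separate, and replicate 4 at 14 weeks was the lowest of all. This made a log2 difference of 0.44 (standard error 0.092, 1.36-fold, adjusted p = 0.023 from limma, exact two-sided permutation p = 0.0079). It was 0.37 after the repeated quantile normalization (adjusted p = 0.035). The call was lost without replicate 3 or replicate 4 at 14 weeks or replicate 2 at 96 weeks, with adjusted p up to 0.062, and with the methods' t-test (adjusted p = 0.079).

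The other enzymes that remove superoxide and peroxide differed little. Gpx1, the cytosolic glutathione peroxidase, had a log2 difference of 0.16 (adjusted p = 0.14 from limma), and Gpx3, the plasma form made in the proximal tubule, had 0.04, or -0.03 after cyclic loess. Sod1, the cytosolic dismutase, had 0.05, or -0.02 after cyclic loess, within a range of 12.69 to 12.76 at 96 weeks and 12.64 to 12.71 at 14 weeks. Sod2, the mitochondrial dismutase, had 0.14 (adjusted p = 0.23 from limma). Catalase (Cat) and the extracellular dismutase Sod3 both had -0.12, with adjusted p = 0.22 and 0.26 from limma. For Cat the 95% confidence interval was -0.26 to 0.02.

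Of the peroxiredoxins, which reduce peroxides with electrons from thioredoxin and are the substrates of Srxn1, 4 were measured and none passed. The log2 differences were 0.10 for Prdx1, 0.11 for Prdx2, 0.13 for the mitochondrial Prdx3 and 0.23 for Prdx4 of the endoplasmic reticulum, and the ages overlapped for each. Prdx2 was read by a second, dimmer probe set. That probe set had 9.09, 8.97, 9.02, 8.85 and 9.01 at 96 weeks, against 8.84, 8.65, 8.63 and 8.62 at 14 weeks. Its groups did not overlap, and its log2 difference was 0.30 (standard error 0.066, adjusted p = 0.028 from limma, exact two-sided permutation p = 0.016), against 0.11 (adjusted p = 0.28) for the brighter one. The probe sets of Prdx2 thus disagree on the call. Those of Gpx4 do not, at 0.44 and 0.47, and those of Prdx1 had 0.10 and 0.04, neither called.

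**Figure D4:**
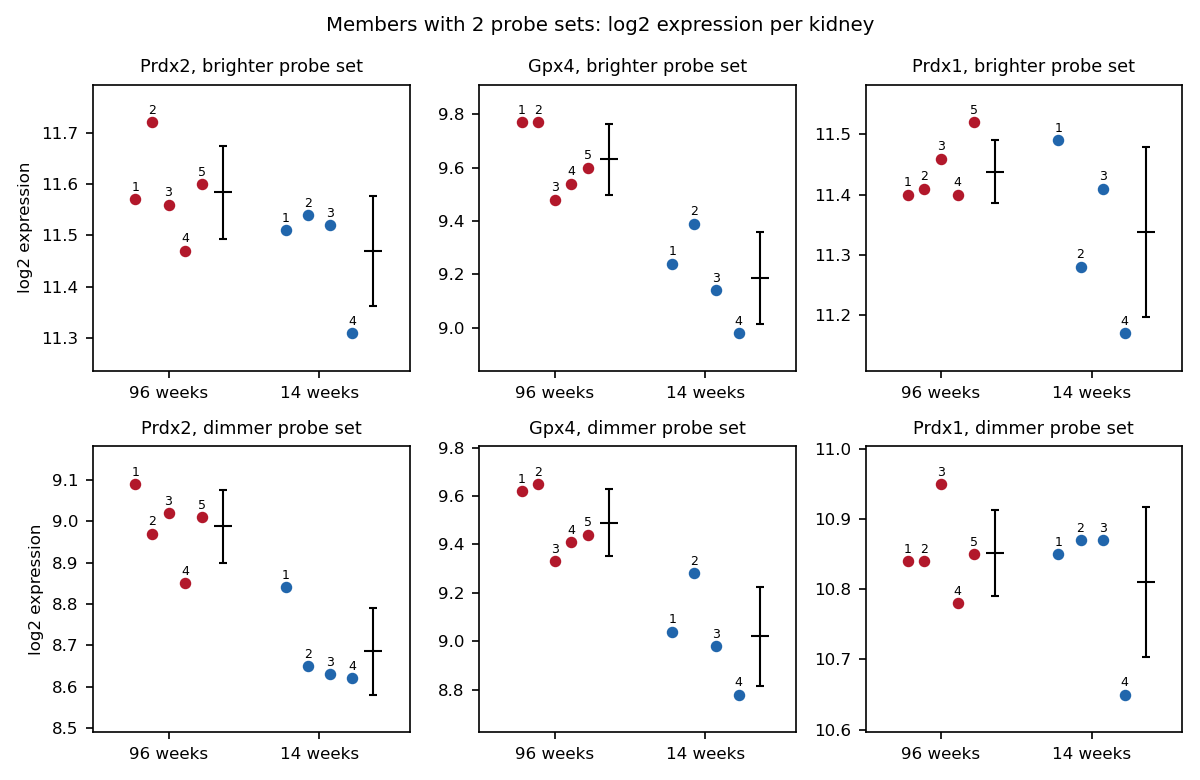
Log2 expression per kidney for the 3 genes that several probe sets read, Gpx4, Prdx1 and Prdx2, with 96 weeks left of 14 weeks in each panel and the bar at the mean with 1 SD. Both probe sets of Gpx4 separate the ages, neither of Prdx1 does, and of Prdx2 only the dimmer one does.

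NADPH, which the glutathione and thioredoxin reductases consume, is supplied in part by the pentose phosphate pathway. Its 3 measured genes among the 35 all had positive differences. Taldo1, the transaldolase, rose. Its levels were 8.36, 8.41, 8.06, 7.98 and 7.93 at 96 weeks, against 7.75, 7.73, 7.85 and 7.70 at 14 weeks. The groups did not overlap, and replicates 1 and 2 at 96 weeks were highest. Old minus young gave a log2 difference of 0.40 (standard error 0.104, 1.31-fold, adjusted p = 0.0493 from limma, exact two-sided permutation p = 0.016). The call was close to the threshold. Adjusted p was 0.078 after the repeated quantile normalization and 0.064 after cyclic loess, and 7 of 9 fits that left out 1 array lost it, with adjusted p up to 0.12, while the log2 differences of these 9 fits were 0.33 to 0.45. The methods' t-test gave an adjusted p of 0.12.

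Pgd, the 6-phosphogluconate dehydrogenase, did not pass. It had a lowest, median and highest value of 8.71, 9.14 and 9.25 at 96 weeks, against a range of 8.31 to 8.75 at 14 weeks. Limma gave Pgd a log2 difference of 0.47 (standard error 0.125, adjusted p = 0.0515 from limma). Tkt, the transketolase, had 0.32 (adjusted p = 0.070 from limma). Of 15 other NADPH suppliers none passed in either direction, and their median log2 difference was 0.08. Among them Pgls, Rpia and Rpe, also of the pentose phosphate pathway, had 0.08, 0.12 and 0.10 (adjusted p = 0.379, 0.313 and 0.275 from limma).

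Park7, which encodes DJ-1, a cysteine-bearing protein that responds to oxidants, had the smallest p of the 35 genes. It had 10.96, 11.02, 10.82, 10.85 and 10.86 in 96 week old kidneys, against 10.40, 10.48, 10.49 and 10.15 in 14 week old kidneys. The lowest old kidney was clearly above the highest young one, and replicate 4 at 14 weeks was the lowest. Park7 averaged 10.90 ± 0.08 at 96 weeks (SD, n = 5) and 10.38 ± 0.16 at 14 weeks (SD, n = 4), an exact two-sided permutation p of 0.0079. The log2 difference was 0.52 (standard error 0.078, 1.44-fold, adjusted p = 0.0077 from limma). All 20 alternative settings called it, with log2 differences of 0.44 to 0.57 and adjusted p of 0.0042 to 0.039. Park7 has 1 probe set, so the settings that change the probe set repeat its main log2 difference.

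Nox4, the NADPH oxidase of the renal tubule and thus a source of hydrogen peroxide, was the only one of the 35 genes with all old kidneys below all young ones. It had 11.99, 11.86, 11.85, 11.73 and 11.98 at 96 weeks, against 12.21, 12.10, 12.06 and 12.06 at 14 weeks. The log2 difference was -0.22 (standard error 0.065, adjusted p = 0.068 from limma, exact two-sided permutation p = 0.024). After the repeated quantile normalization it was -0.30 (adjusted p = 0.025), and after cyclic loess -0.30 (adjusted p = 0.027). The sestrins are stress-inducible proteins. Sesn2 had 0.30 (adjusted p = 0.098 from limma) with overlapping groups, and Sesn1 had -0.02, with a sign that turned after median centring (0.02).

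The kidneys did not contribute evenly. Replicate 4 at 14 weeks held the lowest value of its group for 22 of the 35 genes (62.9%), against 26.2% of all genes. Replicates 1 and 2 at 96 weeks held the highest value of their group for 11 and 13 genes (31.4% and 37.1%), against 22.6% and 25.5% of all genes. Replicates 3 and 4 there held the lowest for 10 and 11 genes (28.6% and 31.4%), against 19.3% and 25.3%. The mean of the centred proximal tubule markers was 0.06, 0.17, -0.08, -0.15 and 0.03 in replicates 1 to 5 at 96 weeks. That of thick limb and distal tubule markers was 0.08, 0.15, -0.58, -0.17 and 0.12. Most of the 35 genes are bright, so that all genes are an unlike background for these ranks. The upper quartile of the deposited values was the lowest of all arrays in replicate 4 at 14 weeks (7.775). It was the highest in replicate 2 at 96 weeks (7.876). The part of these cells or of this scaling in the order of the kidneys was not tested. Without replicate 4 at 14 weeks, 2 of the 35 genes passed and the median log2 difference was 0.12, and without replicate 3 at 14 weeks 2 also passed, with a median of 0.16. Calls were lost over all genes too, where 860 were higher with every array, 374 without replicate 4 and 435 without replicate 3. With replicate 4 left out Park7 passed at 0.45 (adjusted p = 0.012 from limma), and so did Srxn1 at 0.31 (adjusted p = 0.046). The SD within a group had a median of 0.12 over the 35 genes at 96 weeks and 0.09 at 14 weeks, against 0.11 and 0.10 over all genes.

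**Figure D5:**
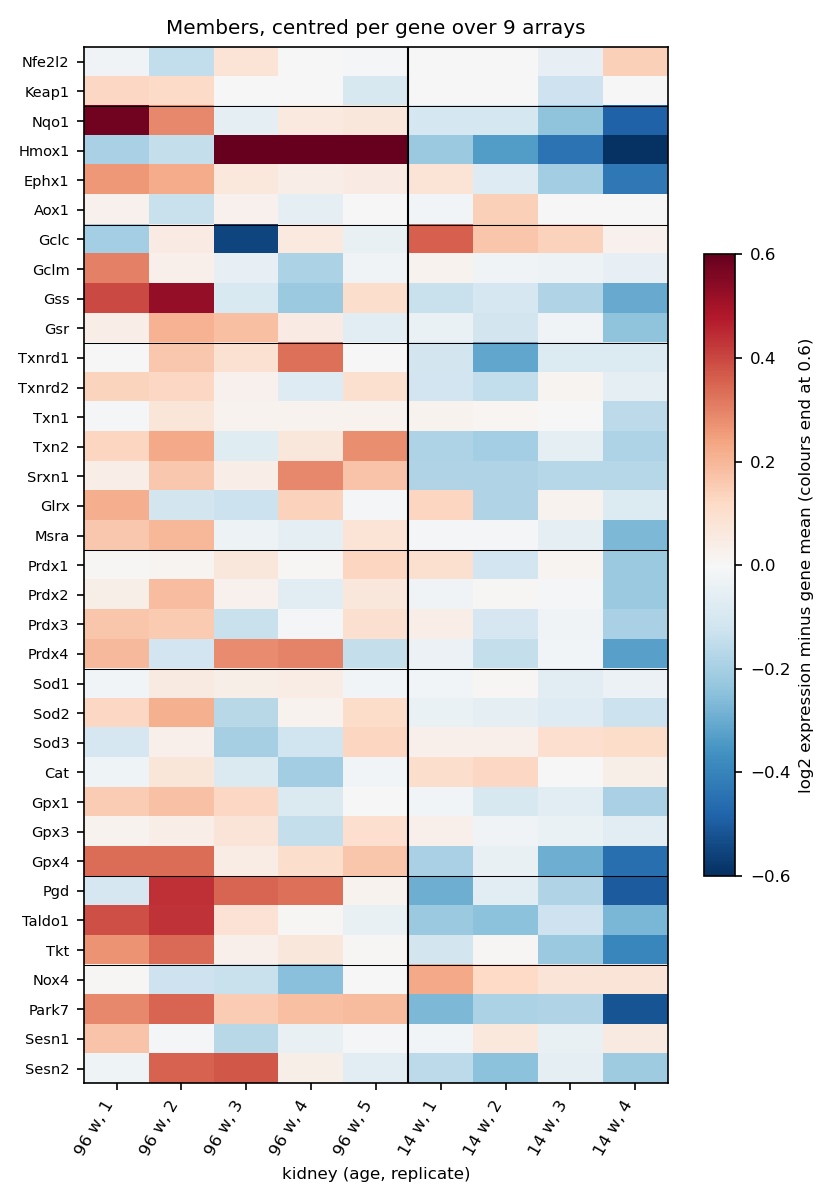
Log2 expression of the 35 genes (rows, by role) in the 9 kidneys (columns, the 5 at 96 weeks left of the 4 at 14 weeks), each gene centred on its mean over all arrays, with colours ending at 0.6. Replicate 4 at 14 weeks is the lowest of the 4 young kidneys for 22 genes, and Hmox1 is high in replicates 3, 4 and 5 at 96 weeks.

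Of 114 other genes of the pathway, listed by role, 108 were measured. In limma 14 of them (13.0%, against 4.31% of all genes) were higher at 96 weeks and none was lower (against 2.4%), with a median log2 difference of 0.09. These genes were also bright, and 56 of them lay above percentile 80 of the mean level, where 10 passed as higher and 11.0% of all genes did. Between percentiles 60 and 80, 4 of 18 passed, against 8.1% of all genes, and neither the 17 between percentiles 30 and 60 nor the 17 below percentile 30 held one that passed. After the repeated quantile normalization 11 were higher (10.2%, against 2.67% of all genes) and 2, Cul3 and Txndc17, were lower (against 2.37%). At an unadjusted p under 0.05, 37 were higher (34.3%, against 13.3% of all genes) and 8 were lower (7.41%, against 15.3%).

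Of 23 other Nrf2 target enzymes 5 passed (21.7%, against 4.31% of all genes), all higher. Gstp1, a glutathione transferase whose sequence is close to that of Gstp2, rose by 0.72 (adjusted p = 0.0077 from limma). Cbr1, a carbonyl reductase, rose by 0.52 (adjusted p = 0.018), and Ftl1, the ferritin light chain, by 0.51 (adjusted p = 0.0057). Gsta4, which conjugates hydroxynonenal from oxidised lipids, rose by 0.51 (adjusted p = 0.0079). Ugdh, which makes UDP-glucuronate, rose by 0.30 (adjusted p = 0.043). Of these, Gstp1, Ftl1 and Gsta4 passed in all 20 alternative settings, Cbr1 in 17 and Ugdh in 8.

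Among proteins that handle glutathione, 2 of 15 passed (13.3%, against 4.31% of all genes), Slc3a2, the heavy chain of the cystine transporter (0.30, adjusted p = 0.038 from limma), and Ethe1, a mitochondrial sulfur dioxygenase (0.24, adjusted p = 0.0495). Both calls were lost after the repeated quantile normalization (adjusted p = 0.12 and 0.11). Of 9 fits that left out 1 array, 1 called Slc3a2 and none called Ethe1, at log2 differences of 0.27 to 0.36 and 0.20 to 0.26, and of all 20 alternative settings 8 called Slc3a2 and 7 called Ethe1. Of 14 further thioredoxin, glutaredoxin and methionine sulfoxide genes 2 passed (14.3%), the endoplasmic reticulum proteins Txndc5 (0.82, adjusted p = 0.0094 from limma) and Txndc12 (0.39, adjusted p = 0.024), in 19 and 14 of 20 alternative settings. Txndc5 was highest in replicate 4 at 96 weeks (9.17), where the mean of the centred B and plasma cell markers was also highest (1.56). The means of the macrophage markers (0.92) and of the T and NK cell markers (1.18) were highest in that kidney too. The part of these cells in the Txndc5 difference was not tested.

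Of 14 other antioxidant proteins 4 passed (28.6%, against 4.31% of all genes), all higher. Selenow, a small selenoprotein, had 8.79, 8.73, 8.98, 9.04 and 8.65 at 96 weeks, against 8.11, 7.99, 8.04 and 7.74 at 14 weeks. The ages were far apart, at 0.87 (standard error 0.098, adjusted p = 0.0029 from limma), and all 20 alternative settings called it. Ccs, the chaperone that loads copper into Sod1, rose by 0.59 (adjusted p = 0.012 from limma), whereas Sod1 itself had 0.05. The paraoxonases Pon3 and Pon2 rose by 0.31 (adjusted p = 0.020) and 0.26 (adjusted p = 0.022). Of 20 alternative settings 19 called Ccs, 16 called Pon3 and 14 called Pon2, which had an adjusted p of 0.056 after the repeated quantile normalization.

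Among 15 other oxidant sources (6.67%, against 4.31% of all genes) only Cyba passed, the p22phox subunit shared by Nox4 and the phagocyte oxidase. It had 9.96, 10.14, 10.11, 9.78 and 9.94 at 96 weeks, against 9.27, 9.37, 9.30 and 8.87 at 14 weeks. The groups did not overlap, with a log2 difference of 0.78 (standard error 0.110, adjusted p = 0.0057 from limma), opposite in sign to that of Nox4. Cybb, the catalytic subunit of the phagocyte oxidase, had 8.99, 7.66, 8.88, 10.31 and 7.62 at 96 weeks, against 7.33, 7.21, 6.99 and 7.04 at 14 weeks. Its old kidneys were scattered, being highest in replicate 4, and the log2 difference of 1.55 did not pass (standard error 0.471, adjusted p = 0.075 from limma). The macrophage marker mean was highest in that kidney too (0.92), as were those of T and NK cells (1.18) and of B and plasma cells (1.56). Cyba was lowest there among the old kidneys.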

How the data were processed

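Kidney RNA was measured on 9 arrays, 5 at 96 weeks and 4 at 14 weeks (the methods name 5 mice per age). The authors used Affymetrix Power Tools 1.12.0 for RMA summaries with quantile normalization, per the labels and methods, and the deposited values are on the log2 scale (35557 probe sets). The array annotation gave 1 symbol to 21789 probe sets, several to 1621 and none to 12147. Probe sets with 1 symbol were kept, and the brightest was used for the 999 genes with more than 1. Signal over background was not used here, so dim genes were not told from absent ones.

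Ages were compared with limma 3.58.1 (lmFit, eBayes; R 4.3.3), with Benjamini-Hochberg adjustment over 19938 genes and a threshold of 0.05. Exact two-sided permutation tests used all 126 splits of the arrays (Python 3.11.15). On simulated data, limma recovered 77.6% of genes changed by 0.5, 95.5% of those changed by 1 and 100.0% of those changed by 2 on the log2 scale (19938 genes, 10 false calls). Smaller changes, such as the median of 0.14 over the 35 genes, were not simulated, so recovery at such sizes is unknown. Alternatives were the methods' t-test, array weights, a trended robust prior, a filter under percentile 30, repeated quantile, cyclic loess or median scaling, the replicate number as a block, the mean over a gene's probe sets, leaving out each array or replicates 3 and 4 at 96 weeks together, and, added after seeing the data, the dimmer probe set. The t-test was adjusted here like the limma fits, whereas the methods used unadjusted p. The dimmer probe set changed only Gpx4, Prdx1 and Prdx2, and the mean over probe sets changes no gene with 1 probe set. In counts over 20 settings, such settings repeat the main log2 difference.

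The members and lists were chosen with earlier results of these data known. All members are accounted for by role. Every array value was given for members that passed and for Nfe2l2, Keap1, Nqo1, Hmox1 and Gclc, and was added for Txn2, Nox4, Cyba, Cybb, Selenow and the dimmer Prdx2 probe set after their values were seen. In the other lists, the genes that passed were named, at most 5 per list, and Sqstm1, Cul3, Txndc17 and Cybb were added after their values were seen.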

Additional observations from a re-analysis of the deposited data

Results flagged for a closer look

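In 6 of the 70 groups of arrays (35 genes at 2 ages), 1 kidney stood apart from the others of its age, and all of them were at 14 weeks. Chance flags about 1 in 20 groups if the groups are independent and hold no equal values. Here all genes share the same arrays. Of the 35 genes, 10 (28.6%, against 57.3% of all genes) had the same value in more than 1 array. Keap1, Txnrd1, Aox1 and Txn1 are among these 10, so that the rate is only a rough guide. Keap1 was lowest in replicate 3 (6.36, next 6.48). Txnrd1 was lowest (7.70, next 7.90) and Aox1 was highest (5.80, next 5.66) in replicate 2. Txn2 was highest in replicate 3 (9.16, next 9.03), the young kidney that overlapped with the old ones. Txn1 (13.01, next 13.17) and Prdx2 (11.31, next 11.51) were lowest in replicate 4, the array that was also lowest for most of the other genes.

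The dimmer probe set of Prdx2, which the comparison of the 35 genes does not use, had a log2 difference of 0.30 between 96 and 14 weeks and separated the ages, whereas the brighter one did not.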

How the results depend on the processing

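Of the 35 genes 4 were higher at 96 weeks in limma on the deposited values. This number was 2 with the methods' t-test and with the replicate block, 7 with the filter on dim genes and without replicates 3 and 4 at 96 weeks, 8 after median centring, and 2 to 5 when 1 array was left out. Park7 was called under each setting. Srxn1 lost its call with the replicate block (log2 difference 0.31, adjusted p = 0.075 from limma), as did Taldo1. That setting also leaves out replicate 5 at 96 weeks. The number lower was 0, and 1 (Nox4) with an intensity trend and robust prior, after the repeated quantile normalization and after cyclic loess. Of the other genes of the pathway 14 were higher, 6 with the methods' t-test, 9 with the replicate block and 7 to 15 with 1 array left out. None was lower, but 1 was with the methods' t-test and with array weights, 2 were after quantile and after loess scaling, and 0 to 1 with 1 array left out. Over all genes 860 were higher and 479 lower. These numbers were 273 and 94 with the methods' t-test, 533 and 473 after quantile scaling, 574 and 399 after loess, 1293 and 298 after median centring, and 279 and 89 with the replicate block. With 1 array left out they were 374 to 751 and 154 to 384, and without replicates 3 and 4 at 96 weeks 739 and 286. Small differences changed sign. Aox1 was 0.01 after quantile and 0.02 after loess scaling. Gclm was -0.07 and -0.04 there, and -0.04 to 0.09 with 1 array left out, negative without replicate 1 at 96 weeks. Glrx was -0.02 and -0.00, and after loess Txn1 was -0.02, Sod1 -0.02 and Gpx3 -0.03. Sesn1 was 0.02 after median centring, 0.01 once replicate 3 at 96 weeks was left out, and 0.04 without both replicates 3 and 4. The labels do not say whether the replicate numbers pair the samples. In deviations from the mean of their age, same-numbered arrays correlated at 0.076, 0.021, -0.037 and 0.012. Differently numbered arrays correlated at -0.088 to 0.063. These values cannot decide pairing, because centring within an age ties them to each other. The cause of these changes was not tested, apart from the fewer arrays in fits that leave some out. The number of arrays and the unknown signal over background limit all calls.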
